A study of Mus musculus with 310 samples.

Results

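Defb1 and Defb6 encode beta-defensin 1 and beta-defensin 6, antimicrobial peptides made by epithelial cells. They were taken by name from a table of 14068 genes in single epidermal cells of the mouse tail, and both (2 of 14068 genes) were present. The rule uses their names only, although the genes were picked with earlier results of these data known. They are described here per cell, per plate and per group.

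Beta-defensins are small, positively charged, secreted peptides that insert into microbial membranes, and they are folded by disulphide bonds between conserved cysteines. Beta-defensin 1 is known for constitutive production in many epithelia, whereas other members of the family rise with bacterial products or inflammatory cytokines. In hairy skin the opening of the hair follicle (the infundibulum) and the duct of the sebaceous gland are the places where surface microbes come closest to living keratinocytes.

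The study asked what epidermal stem cells and their progeny keep of an earlier wound. The mice carried Lrig1-EGFP-ires-CreERT2, which expresses an inducible Cre from the locus of Lrig1, which marks stem cells of the upper hair follicle, and the reporter Rosa26-fl/STOP/fl-tdTomato, on a mixed CBA and C57BL/6 background. All groups shared this genotype and 1 dose of hydroxytamoxifen on the tail before wounding, so tdTomato marked Lrig1-expressing cells and their descendants, and the sort left out all other epidermal cells. The 310 cells were labelled 38w (145 cells, RepI and RepL) or 38wUW (165 cells, RepM and RepN), with 38 as the time in weeks. RepI lay on plates C114 and C118, RepL on C119, RepM on C128 and RepN on C129. UW is nowhere explained in the labels. It could stand for unwounded, but the study writes a plain time for its unwounded aged mice, so which group had healed a wound cannot be told and differences are given as 38w against 38wUW. The study describes independent experiments with several biological replicates each, but neither it nor the labels tie these to the replicate tags, so the spread between replicates may be partly technical.

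The replicates held between 5472070 and 12946742 reads, and a cell held between 11711 and 721564 (median 61294). To compare cells at equal depth, each was thinned at random to 20000 reads, which kept 277 of 310 cells. All 7 keratinocyte markers were in the table, and every thinned cell had reads of them. Of 6 immune markers only Ptprc was listed, with a read in 9 thinned cells. Melanocyte markers (2 of 4 listed) had a read in 42 thinned cells, and fibroblast markers (4 of 5 listed) in 21, with summed levels of 12.1 to 61.7 CPM (reads per 1000000 reads of the library) in 38w and 6.95 to 14.4 CPM in 38wUW. Their part in the defensin values was not tested. Of 3 endothelial markers Pecam1 and Kdr were listed and Cdh5 was not. They summed to 1264 to 8773 CPM in 38w and 2640 to 7673 CPM in 38wUW. A read of them was found in 276 of 277 thinned cells, so they could not set endothelial cells apart here. Plate C114 stood apart, with a median of 31% of reads on ribosomal protein genes against 3.55% to 6.76% on the other plates, and C118 had the highest mitochondrial share (33.8% against 2.77% to 18.3%). Their part in the results below was not tested, and levels and shares of all cells are given by plate as well.

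The genes lie on mouse chromosome 8 in the defensin cluster (GRCm38). Defb6 (ENSMUSG00000050756.3) spans chr8:19225478-19228209 on the plus strand in 2 exons of 85 and 238 bases, separated by an intron of 2409 bases. Defb1 (ENSMUSG00000044748.8) spans chr8:21776599-21795185 on the same strand, with an intron of 17715 bases before a second exon of 758 bases. The coding sequences are shown because both genes were counted from transcripts of one family, and a reader can see how far they differ. They are written in lower case with every in-frame cysteine codon in capitals and without the stop codon. The last 6 of these in each gene carry the spacing of the defensin fold, and Defb1 has a further one at codon 12.
Defb1: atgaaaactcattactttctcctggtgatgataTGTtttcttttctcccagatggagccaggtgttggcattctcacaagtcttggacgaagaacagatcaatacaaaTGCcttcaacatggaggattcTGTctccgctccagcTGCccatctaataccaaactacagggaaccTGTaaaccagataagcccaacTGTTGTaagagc
Defb6: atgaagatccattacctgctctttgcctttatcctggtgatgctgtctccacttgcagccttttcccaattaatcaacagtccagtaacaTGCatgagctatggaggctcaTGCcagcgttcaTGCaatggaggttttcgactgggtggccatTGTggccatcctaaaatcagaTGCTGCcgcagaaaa
The coding sequence of Defb1 had 207 bases with 7 cysteine codons, and that of Defb6 had 189 bases with 6. Counted over the last 6 of them, the gaps between cysteine codons were 6, 4, 9, 6 and 0 codons in Defb1 and 6, 3, 9, 6 and 0 codons in Defb6. A global alignment of the coding sequences held 115 identical bases in 220 columns (52.3%). None of the 842 stretches of 31 bases in the Defb1 transcript, and none of the 293 in that of Defb6, occurred in a transcript of any other gene in GENCODE M21, and all deposited values of both genes were whole numbers. The 2 transcripts shared 0 such stretches with each other.

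The 250 bases before the start of Defb6 (RefSeq, GRCm38.p6, chr8:19225228-19225477, plus strand) are shown because Defb6 was read mostly in the marker class described below. The markers of that class include the GATA factor gene Gata6, whose part in the Defb6 reads was not tested. Gata6 was not among the 8 genes most like Defb6 by correlation over cells. Capitals mark the motifs that were found.
Defb6 start region: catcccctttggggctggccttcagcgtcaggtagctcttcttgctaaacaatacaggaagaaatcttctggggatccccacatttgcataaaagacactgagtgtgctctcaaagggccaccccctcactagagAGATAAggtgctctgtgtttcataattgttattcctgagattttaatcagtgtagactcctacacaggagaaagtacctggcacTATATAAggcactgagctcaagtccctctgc
The GATA-family letters AGATAA occurred once, beginning 115 bases before the start, and 9.99% of 32851 such windows held them on either strand. The TATA-box letters TATANAA occurred once, 31 bases before the start, against 10.4% of windows. The AP-1 letters TGANTCA did not occur, and 6.75% of windows held them. No motif overlapped another, and a match is a description of letters only.

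Defb6 was a highly read gene in few cells. It had 109073 reads in 36.8% of the 310 cells, and Defb1 had 9525 reads in 40.6%. A single cell of plate C114 held 25519 Defb6 reads, and within RepI the 3 highest cells held 83.1% of its Defb6 reads. In RepM the 3 highest cells held 44.9% of Defb6 reads, in RepN 52.9% and in RepL 70.3%. Reads were thus concentrated in a handful of cells in every replicate, and a replicate sum of Defb6 rests on them. Per kilobase of transcript, the summed level of Defb6 exceeded that of Defb1 by 86.5 times in RepI and 12.7 times in RepL, compared with 29.3 times in RepM and 15.2 times in RepN, so Defb6 was the higher of the pair in all 4 replicates.

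Summed over all cells, Defb1 was read at 179.9 CPM in RepI and 106 in RepL, compared with 342 in RepM and 409 in RepN. Both 38w replicates lay below both 38wUW replicates (143 ± 52.3 against 375 ± 47.1 CPM, SD, n = 2 each), as did all 3 plates of 38w, with 207 on C114, 52.9 on C118 and 106 on C119. Of 11760 genes tested, 26.2% had both 38w replicates below both of the others, so this ordering was common in the table. In the edgeR quasi-likelihood fit over all genes the log2 fold difference of Defb1 (38w minus 38wUW) was -1.14 with a standard error of 0.87 and an adjusted p of 0.729. The difference did not pass the test.

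Defb6 gave no common order of the groups. Its summed level was 5769 CPM in RepI and 500.3 in RepL, compared with 3710 in RepM and 2300 in RepN. The groups overlapped fully, with RepI the highest and RepL the lowest of all (3134 ± 3725 against 3005 ± 997 CPM, SD, n = 2 each). RepI itself was split, at 6876 CPM on C114 and 614 on C118. The edgeR log2 fold difference of Defb6 was 0.32 with a standard error of 1.28 and an adjusted p of 0.956. It turned negative, to -2.17, when RepI was taken from C118 alone, to -0.42 without the highest Defb6 cell and to -1.68 without the 3 highest, none of which passed the edgeR test (adjusted p of 0.834, 0.934 and 0.66). With plates as units and the batch tag or the alternative tag as a block it was -0.62 or -0.96, also short of the threshold. In this fit 0 of 11760 genes passed an adjusted p of 0.05 (0% of genes), 949 had an unadjusted p under 0.05 (8.07%), and DESeq2 called 83 genes (0.706%), neither defensin among them.

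**Figure D1:**
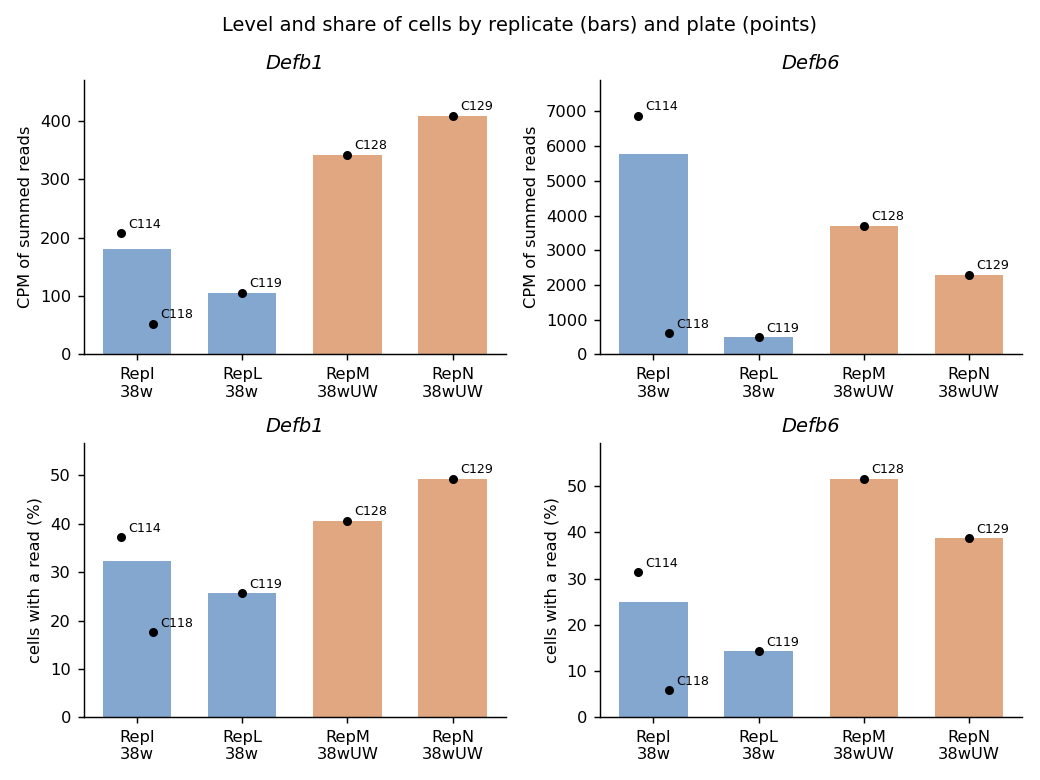
Level and detection of Defb1 (left) and Defb6 (right). Bars give each replicate and points each plate. The upper row shows CPM of summed reads and the lower row the percent of cells with a read after thinning to 20000 reads, with 38w in blue and 38wUW in orange. RepI combines plates C114 and C118, which lie at 6876 and 614 CPM for Defb6.

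The share of cells in which a defensin was read is less open to a few extreme cells. After thinning, Defb6 was read in 17 of 68 cells of RepI (25%), 10 of 70 of RepL (14.3%), 33 of 64 of RepM (51.6%) and 29 of 75 of RepN (38.7%). Both 38w replicates were lower (19.6 ± 7.58% against 45.1 ± 9.12%, SD, n = 2 each), a difference of -25.5 percentage points. Defb1 was read in 22 of 68 cells of RepI (32.4%), 18 of 70 of RepL (25.7%), 26 of 64 of RepM (40.6%) and 37 of 75 of RepN (49.3%). Here too both 38w replicates were lower (29.0 ± 4.69% against 45.0 ± 6.16%), by 15.9 percentage points. For each gene an exact permutation test (two-sided) of the 4 replicate shares gave p = 0.333, the smallest value that 2 against 2 allows. Of 12026 genes found in at least 5 thinned cells, 32.5% had shares ordered in this way, so the order was not particular to the defensins. Without thinning the shares were 25.9 ± 13.9% against 46.7 ± 6.40% for Defb6 and 34.0 ± 6.53% against 46.6 ± 7.31% for Defb1.

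The order of the shares held on single plates and within the batch tags, although the sums of Defb6 did not. Of the 38w plates, Defb6 was read in 31.4% of cells on C114, 14.3% on C119 and 5.88% on C118. The last value was 1 of 17 cells, with a 95% Wilson interval of 1.05% to 27.0%, which covers counting error only. Within the batch tagged Replicate1, the 38w plates C118 and C119 lay below the 38wUW plate C129 in the Defb6 share (38.7%) and in Defb6 CPM (500.3 to 614 against 2300). Within Replicate2, C114 lay below C128 in the share (51.6%) but above it in CPM (6876 against 3710). An alternative batch tag in the labels swaps C128 and C129, and the directions were the same under it. For Defb1, the 38w plates were lower in share and in CPM within both values of either tag.

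**Figure D2:**
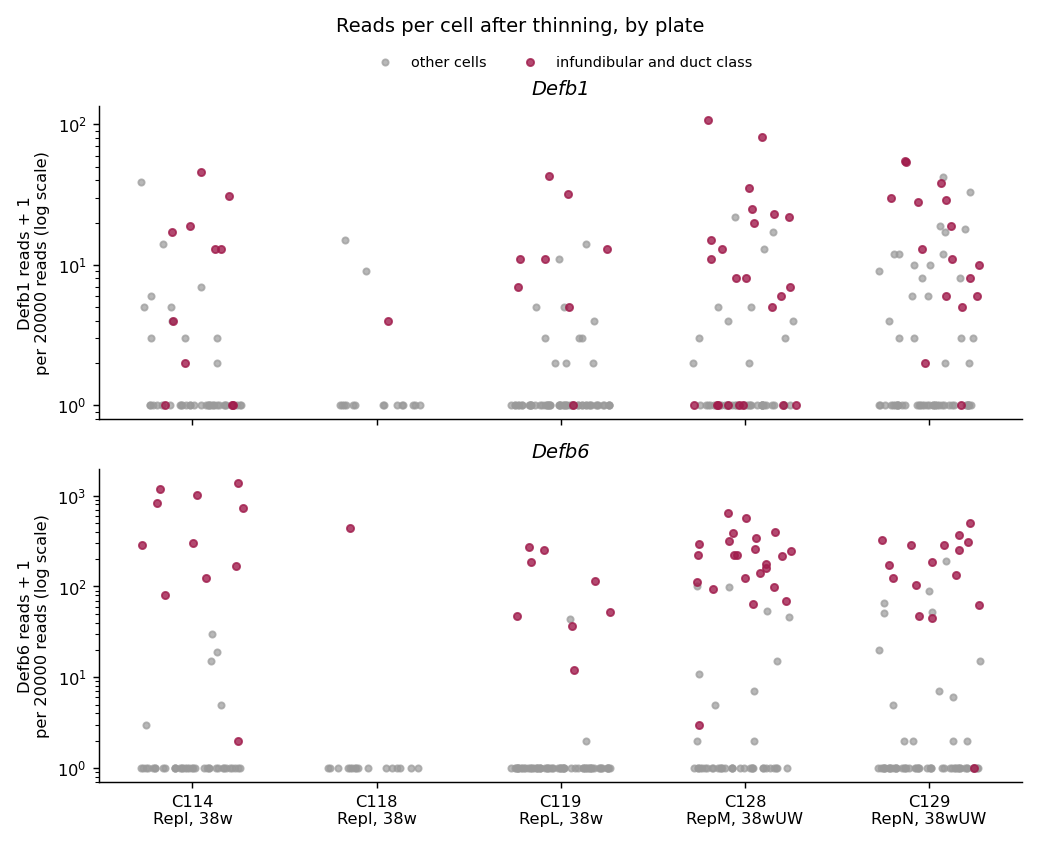
Reads of Defb1 (top) and Defb6 (bottom) in each of 277 cells thinned to 20000 reads, by plate, plotted as reads + 1 on a log axis. Cells of the infundibular and duct marker class are dark red and all others grey. On every plate the highest Defb6 cells belong to that class. Defb1 also has high cells outside it, such as bulge-class cells with 38 reads on C114 and 41 on C129. On C118 its highest cell, with 14 reads, is of the basal class.

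To ask which cells carried the defensins, each thinned cell was given the marker class with the highest mean score. The infundibular and duct class was scored on 10 markers (Krt79, Krt17, Cst6, Klk7, Klk10, Plet1, Gata6, Ly6g6c, Psapl1 and Spink5), and neither defensin was a marker of any class. It held 59 of 277 cells, of which 58 had a read of Krt79, a keratin of the follicle opening and duct, and 41 a read of Gata6. The class is a range of a score and not a cell type. No cell of it lay within 0.1 of the next score, against 23 of all 277 cells. The median cell of the class had 56100 CPM over its own markers, 2850 over the interfollicular differentiated markers, 2000 over the basal markers, 350 over the sebocyte markers and 0 over the bulge markers.

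Defb6 was read in nearly every cell of this class and in few others. It had a read in 58 of 59 class cells (98.3%, Wilson interval 91.0% to 99.7%) and in 31 of the 218 others (14.2%, 10.2% to 19.5%). Within replicates the class exceeded the other cells by 83.4 percentage points on average, and by between 70.0 and 96.8 in the 4 replicates. The exact two-sided sign-flip permutation test gave p = 0.12, the smallest value that 4 replicates allow, for a difference seen in 4 of 4. Class and defensins were read from the same cells, so this describes where the reads lie. Of the 12016 genes that were not class markers, Defb6 had the largest mean difference in share between the class and other cells, ahead of Teddm3 (76.0 points), Sdr16c6 (75.1) and Sprr1a (71.2). In all, 10.6% of 12026 genes had a higher share in the class in all 4 replicates.

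The amount of Defb6 in class cells varied widely. The median class cell had 370 Defb6 reads per 20000 in RepI and 82.5 in RepL, compared with 219 in RepM and 177.5 in RepN. The lowest class cell had 0 and the highest 1364. The class held 94.5% of all thinned Defb6 reads, and between 86.6% in RepN and 99% in RepI. Seen from the gene, 44 of the 46 cells with 100 or more Defb6 reads were of the class, against 12 of 27 cells with 10 to 99 reads, 2 of 16 with 1 to 9 and 1 of 188 with none. Cells with much Defb6 were thus nearly always class cells, while cells with little were mixed.

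Defb1 followed the same class less closely. It was read in 46 of 59 class cells (78.0%, Wilson interval 65.9% to 86.6%) and in 57 of the 218 others (26.1%, 20.8% to 32.4%). Both intervals again pool the cells of all replicates. By replicate the shares ran from 65.2% to 93.75% in the class and from 17.7% to 37.3% in the others. The mean difference within replicates was 54.1 percentage points, from 38.4 to 69.8, again in 4 of 4 replicates with p = 0.12 in the exact sign-flip test. By the same measure Defb1 stood 21st of 12016 genes. Its median in class cells was 7.5 reads in RepI and 10 in RepL, compared with 7 in RepM and 11 in RepN, and the class held 68.1% of its thinned reads. The remaining reads lay mostly in cells of the bulge class (15.5% of all) and the basal class (9.35%).

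**Figure D3:**
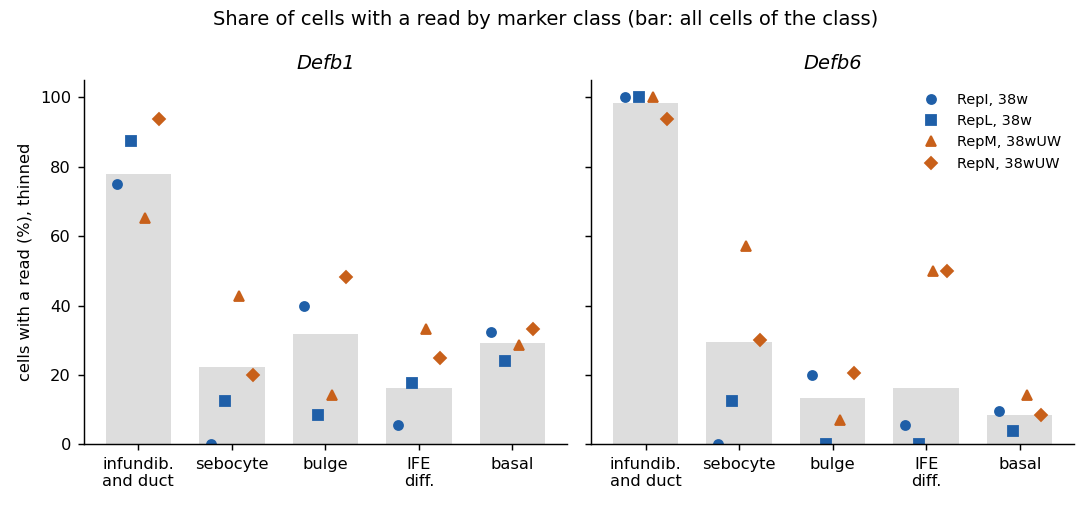
Percent of thinned cells with a read of Defb1 (left) or Defb6 (right) in each marker class. Bars give all cells of a class and symbols the 4 replicates, with 38w in blue and 38wUW in orange (IFE diff., interfollicular differentiated). For Defb6 the class bars fall from 98.3% in the infundibular and duct class to 29.6% or less in the others, and for Defb1 from 78.0% to 31.7% or less.

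Outside the infundibular and duct class both defensins were read in every other class. Sebocyte-class cells had Defb6 reads in 8 of 27 cells (29.6%) and Defb1 reads in 6 (22.2%). In the interfollicular differentiated class each gene was read in 8 of 49 cells (16.3%). For Defb6 the counts were 1 of 18 (RepI), 0 of 17 (RepL), 3 of 6 (RepM) and 4 of 8 (RepN). In the sebocyte class they were 0 of 2, 1 of 8, 4 of 7 and 3 of 10 in the same order. The pooled Defb6 shares of both classes thus hide lower shares in RepI and RepL, from few cells. In the basal class RepI (9.68%) lay above RepN (8.33%), and in the bulge class RepI (20%) lay above RepM (7.14%). Basal-class cells had Defb1 reads in 24 of 82 cells (29.3%) and Defb6 reads in 7 (8.54%), and bulge-class cells had Defb1 in 19 of 60 (31.7%) and Defb6 in 8 (13.3%). In these counts the basal and bulge classes held more cells with Defb1 than with Defb6, a description of the same cells and not a test. RepN supplied 14 of the 19 bulge-class cells with Defb1, from 29 bulge-class cells in that replicate. The Wilson intervals for Defb1 ran from 20.5% to 39.9% in the basal class and from 21.3% to 44.2% in the bulge class. They pool the cells of all replicates, so their overlap cannot compare the classes. By replicate the Defb1 share ran from 8.33% in RepL to 48.3% in RepN in the bulge class. In the basal class it ran from 24% in RepL to 33.3% in RepN.

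Within the infundibular and duct class the 2 groups did not separate. Defb6 was read in 12 of 12 class cells of RepI, 8 of 8 of RepL, 23 of 23 of RepM and 15 of 16 of RepN (100 ± 0% against 96.9 ± 4.42%, exact permutation p = 1). Defb1 was read in 9 of 12, 7 of 8, 15 of 23 and 15 of 16 class cells in the same order (81.2 ± 8.84% against 79.5 ± 20.2%, exact permutation p = 1). The replicates of each group overlapped for both genes. The mean log2(CPM + 1) of Defb6 in class cells was 12.8 ± 1.19 in 38w and 12.6 ± 0.56 in 38wUW, and that of Defb1 was 7.37 ± 1.02 and 7.49 ± 1.75. With 8 to 23 class cells in a replicate, only large differences could have been seen.

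An edgeR fit on the reads of class cells alone called 0 of 7554 genes, with 411 at an unadjusted p under 0.05, and DESeq2 called 21 (0.278%). The log2 fold difference was -0.08 (standard error 1.26, adjusted p = 0.991) for Defb1 and 1.5 (standard error 1.75, adjusted p = 0.897) for Defb6. Leaving out RepL raised Defb6 to 2.23 with an adjusted p of 0.00623, where 4.58% of 9362 genes were called, and leaving out RepI turned it to -0.67 (adjusted p = 0.781). Either fit leaves 1 sample in 38w, which is assumed to vary like the 2 of 38wUW, and 11 of the 12 class cells of RepI came from C114. With RepI from C118 alone, which is 1 class cell, the values were -0.13 for Defb6 and -1.05 for Defb1. The level of Defb6 within the class therefore followed which 38w replicate was kept.

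The make-up of the cells by class was itself ordered by group. The infundibular and duct class made up 17.6% of thinned cells in RepI and 11.4% in RepL, compared with 35.9% in RepM and 21.3% in RepN (14.5 ± 4.40% against 28.6 ± 10.3%, exact permutation p = 0.333). Among all other cells, Defb6 was read in 8.93% in RepI and 3.23% in RepL, compared with 24.4% in RepM and 23.7% in RepN (6.08 ± 4.03% against 24.1 ± 0.468%, p = 0.333 in the exact test). In both measures the 38w replicates were the lower, and 29% of 12026 genes had other-cell shares in that order. By plate the class share was not so ordered, since C114 of 38w (21.6%) lay level with C129 of 38wUW (21.3%), and C118 held 1 class cell among 17. For Defb1 the other-cell shares were 23.2%, 17.7%, 26.8% and 37.3% in the same order of replicates, and C114 alone (27.5%) lay above C128 (26.8%). The other cells were also of different classes in the 2 groups. Basal-class cells made up 45.6% of RepI and 35.7% of RepL but 21.9% of RepM and 16% of RepN, and interfollicular differentiated cells 26.5% and 24.3% but 9.38% and 10.7%. Bulge-class cells ran the other way, at 7.35% and 17.1% but 21.9% and 38.7%. The part of this make-up in the defensin shares was not tested. Of the 31 other cells with a Defb6 read, 13 (41.9%) had the infundibular and duct score as their second highest, against 21 of the 187 without a read (11.2%).

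Both defensins were often read in the same cell. After thinning, 63 cells had reads of both, 40 of Defb1 only, 26 of Defb6 only and 148 of neither. Defb1 was read in 70.8% of cells with Defb6 and in 21.3% of cells without it. Among the 46 cells with 100 or more Defb6 reads, 39 had Defb1 (84.8%), 14 of the 46 being of 38w and 32 of 38wUW. Over the 277 cells the correlation of log2(CPM + 1) of the genes was 0.56 after subtracting plate means, and within the 59 cells of the infundibular and duct class it was 0.19. Within the other classes it was 0.73 (sebocyte, 27 cells), 0.47 (interfollicular differentiated, 49 cells), 0.46 (bulge, 60 cells) and 0.14 (basal, 82 cells). Cells share libraries, plates and depth, so these values are descriptions.

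**Figure D4:**
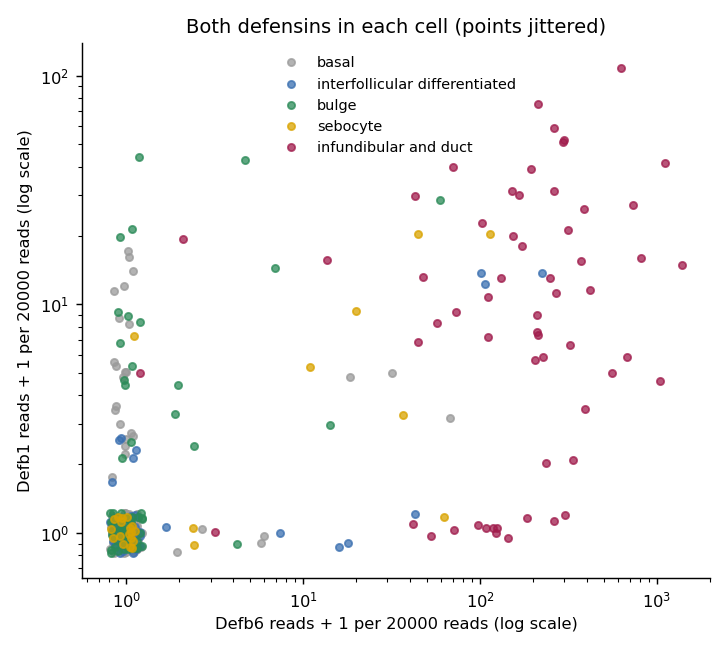
Defb1 reads + 1 against Defb6 reads + 1 in each of 277 cells thinned to 20000 reads, on log axes and jittered, coloured by marker class. Most cells of the infundibular and duct class lie towards the right, with and without Defb1 reads, but 1 had no Defb6 read and 2 had 1 to 9. A column of basal-class and bulge-class cells at the left has Defb1 reads without Defb6.

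The genes whose pattern over cells was most like that of Defb6 included 3 of the class markers, Krt79, Cst6 and Ly6g6c. Over 4169 genes found in at least 20% of 277 thinned cells, the closest by Pearson correlation were Krt79 (0.87) and Cst6 (0.82), a cysteine protease inhibitor of cornifying epithelia. Skint3 and Teddm3 followed at 0.75 each, then Ptgr1 (0.73), Ly6g6c (0.73), Sprr1a (0.72), a precursor of the cornified envelope, and Sdr16c6 (0.71), which acts on retinoids. Krt79 reached at least 0.82 on every plate taken alone, although on C118 Defb6 was read in only 1 of 17 thinned cells, so that value rests on 1 cell. Defb1 came 22nd in this order.

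The closest to Defb1 was Defb6 itself, at 0.56. Cst6 (0.52), the epithelial transcription factor gene Ehf (0.51), Nebl (0.50), Krt79 (0.50), the carbonic anhydrase gene Car2 (0.47), Teddm3 (0.47) and Plet1 (0.47) came next. The values were lower than for Defb6 and less even, Car2 ranging from -0.11 to 0.61 over single plates. The lists of 8 for the 2 defensins shared 3 genes (Krt79, Cst6 and Teddm3).

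Other beta-defensins were almost unread. Defb2, the neighbour of Defb1 at chr8:21839926-21843482, had 24 reads in 5 cells, all of RepN. The counts of 0 in RepI, RepL and RepM allow up to 0.308, 0.517 and 0.548 CPM. Defb5, the neighbour of Defb6 at chr8:19247580-19250828, had 23 reads in 7 cells, of which 18 reads were in RepN, 3 in RepM and 2 in RepL. Neither reached the level needed for the main fit.

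Of 44 antimicrobial genes listed for comparison 19 were in the table and 12 were tested, and 0 were called in either direction by edgeR or by DESeq2. The 10 tested besides the defensins had a median log2 fold difference of 0.97, against 0.12 over all 11760 genes. In 38w 7 of them were fitted higher and 3 lower, against 6276 higher and 5484 lower over all genes. Rnase4, which encodes a secreted ribonuclease, was at 199.9 CPM in RepI and 103 in RepL, compared with 81.1 in RepM and 83.8 in RepN, and its log2 fold difference of 1.13 (standard error 0.84) did not pass the test. Ang, which encodes another ribonuclease, was at 25.0 CPM in RepI and at 5.61 to 5.86 in the other 3. The cystatin-like Stfa3 ranged from 5.41 to 111 CPM and Stfa1 from 2.94 to 19.3. Pglyrp4, which binds bacterial peptidoglycan, lay between 2.78 and 35.9 CPM, Chil1 between 2.93 and 29.2, and the protease inhibitor Slpi between 0.345 and 8.33. Lcn2, which withholds iron from bacteria, was at 32.3 CPM in RepM and 4.48 to 5.76 elsewhere. Rnase4, Ang and Stfa1 had both 38w replicates above both 38wUW replicates, an order found in 12.6% of tested genes, and the groups overlapped in the other 5. For Ang the order rests on nearly equal values, 5.859 CPM in RepL and 5.848 in RepM.

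Among 28 receptors and regulators of antimicrobial defence 24 were in the table and 20 were tested, with 0 called by edgeR or DESeq2 and a median log2 fold difference of 0.60. Those with the highest average log2 CPM were Mc1r, a melanocortin receptor, at 153 to 1817 CPM, Nfkbia, an inhibitor of NF-kB, at 70.0 to 320.5, Egfr at 88.7 to 199 and Vdr, the vitamin D receptor, at 72.2 to 123 CPM. Their log2 fold differences were 1.02, 0.86, 0.52 and -0.39, with standard errors of 0.82 to 1.17. Tlr4, the receptor for bacterial lipopolysaccharide, was chosen after its values were seen as the only one with an unadjusted p under 0.05. That is 1 of 20 genes tested, while 8.07% of all 11760 genes had such a p in the same edgeR fit. It was at 0.72 CPM in RepI and 0.345 in RepL, compared with 12.8 in RepM and 3.09 in RepN, an order shared by 26.2% of tested genes. It had a read in 15 cells, and its edgeR adjusted p was 0.617.

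**Figure D5:**
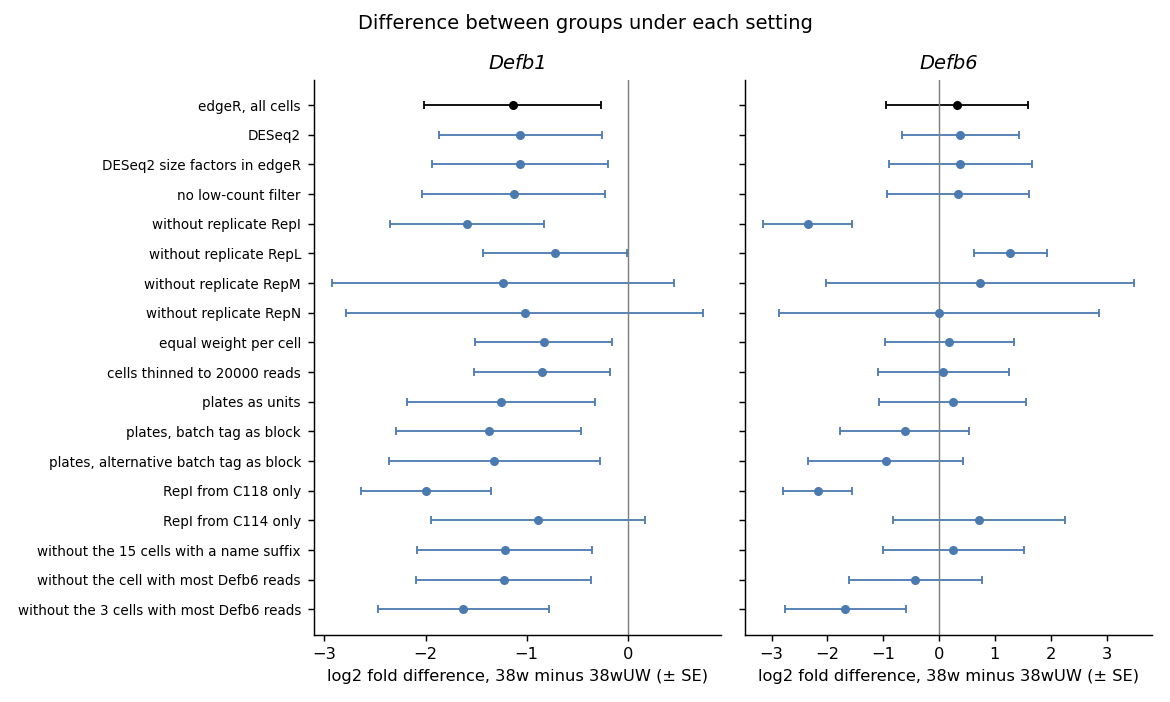
Log2 fold difference (38w minus 38wUW, with its standard error as bars) of Defb1 (left) and Defb6 (right) in the edgeR fit of all cells (black) and under each other setting (blue). Defb1 stayed below 0 in all settings, whereas Defb6 ran from -2.36 without RepI to 1.28 without RepL.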

How the data were processed

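The deposited table holds expected counts, estimated by the authors with Salmon 0.13.1 on mm10/GRCm38 transcripts and not scaled. The submitters' notes also name Seurat and R 4.0.3. Of the values 3.6% were not whole. Libraries were Smart-seq2 without molecular identifiers, so a read is not a molecule and intervals cover counting error only. The members, the lists and the classes were chosen with earlier results of these data known.

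Counts were summed per replicate, rounded and fitted in R 4.3.3 with edgeR 4.0.16: low counts were removed by filterByExpr, libraries scaled by TMM, and genes tested by the quasi-likelihood method, with Benjamini-Hochberg adjusted p under 0.05 as a call. The standard error is the log2 fold difference divided by the square root of F. DESeq2 1.42.0 was an alternative. Cells were thinned to 20000 reads without replacement, and shares were compared with exact permutation tests over replicates. Each thinned cell took the class with the highest mean z-score of log2(CPM + 1) over markers found in at least 5 cells, and 9 of 10 sebocyte markers were in the table. Correlations used log2(CPM + 1) with plate means subtracted. Doublets were not called, since each well was taken to hold 1 cell. However, a 38w library on C119 and a 38wUW library on C129 carried the name suffix MBULK. The study also made mini-bulk libraries of many sorted cells, and whether these were such libraries is not given. Both were counted as cells and fell in the infundibular and duct class, with 52 and 287 thinned Defb6 reads. Without the 15 cells with a name suffix, the class excess was 83.4 percentage points for Defb6 and 51.4 for Defb1. The named genes were the defensins, other beta-defensins with a read, the 8 further antimicrobial genes and 4 regulators with the highest average log2 CPM, the 8 genes most like each defensin, and class markers. Neither batch tag entered the design, because the tags contradict each other on 2 plates, C128 and C129. Promoter windows matched 1 of the 2 genes (Defb6). The authors' cell and gene filters are described in the study's methods, and whether they were applied to this table is not given in the sources used here.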

Additional observations from a re-analysis of the deposited data

How the results depend on the processing

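The lower level of Defb1 in 38w kept its direction under all 17 other settings (-1.59 to -0.72 on the log2 scale without each replicate) and passed the test in none. The settings without the highest cells were set by Defb6 reads, and none was set by Defb1 reads. The shares of cells with Defb1 or Defb6, and the excess of both in the infundibular and duct class, kept their directions under every setting tried, in designs too small to pass a test. Defb6 between groups changed sign: it ran from -2.36 to 1.28 without each replicate, and was -2.17 with RepI from C118 only, -0.42 without the highest Defb6 cell and -1.68 without the 3 highest (the last 2 settings were chosen after seeing the data). With plates as units and the batch tag as a replicate block it was -0.62, and -0.96 with the alternative tag as the block. The number of genes called was 0 at first, 83 with DESeq2, 1 with no low-count filter, 1 and 4 with the replicate block by either tag, and 0 to 1215 without each replicate (169 without RepI, 1215 without RepL), where the lone sample of a group is assumed to vary like the other group.

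The fit within the class was added after seeing the data. Without each replicate its log2 fold difference ran from -0.26 to 0.15 for Defb1 and from -0.67 to 2.23 for Defb6, and genes called from 0 to 429. DESeq2 gave 0.060 for Defb1 and 21 genes called, and RepI from C118 only (1 class cell) gave -0.13 for Defb6 and -1.05 for Defb1. The share difference within the class was 1.77 percentage points for Defb1 and became -8.56 at a minimum of 5 reads, -3.08 without the 15 cells with a name suffix, and -12.5 to 16.0 without each replicate. For Defb6 it was 3.12 and became -4.17 at 10000 reads and -6.28 with scores set within each plate. The fits without RepI and without RepL leave 1 sample in 38w. In these fits the log2 fold difference was -5.33 and -4.57 for the antimicrobial gene S100a8. For the receptor gene Tlr5 it was -3.74 and -5.85. Both genes were named after their values were seen, and neither reached the level needed for the main fit. Of the 8 genes most like Defb6, 2 to 5 remained among the 8 on plates C114, C118 and C129 alone, and of those most like Defb1, 0 to 5 remained on single plates. The causes were not tested.

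With 2 replicates a group, the exact test of shares cannot go below 0.333. Plate and replicate cannot be told apart outside RepI. Reads of few cells set the sums of both defensins.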

Other observations

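On plate C114, 11 wells were each named by 2 cells, of which 1 carried a name suffix that the labels do not explain. The correlation of log2(CPM + 1) between the 2 cells of a well had a median of 0.52 (0.38 to 0.60), against 0.44 (0.31 to 0.57) over the 1367 other pairs of the plate. Both defensins had 0 reads in either cell of well F2, whereas in well F4 the cell with 25519 Defb6 reads, the highest of all, shared its well name with a cell of 0 Defb6 reads.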
